A study of Drosophila melanogaster with 8 samples.

Results

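The circadian clock genes followed here were *Clk*, *cyc*, *per*, *tim*, *vri*, *Pdp1*, *cwo*, *cry* and *jet*, chosen by name as the core of the *Drosophila* molecular clock and its light input. All 9 had a row in the table of 23932 features, and all 9 passed the minimum level for testing, as did 9788 features in total. RNA was sequenced from adult *Drosophila melanogaster* brains of flies 0 to 1 day old, with males and females pooled. In the EmcOE group (4 samples) the pan-neuronal driver *elavC155-Gal4* expressed a *UAS-emc* transgene, and in the Control group (4 samples) the same driver was crossed to the white\* line, so both groups carried the driver and differed in the line crossed to it as well as in Emc. The driver is active in neurons from embryonic stages onward, so adult brains carry the result of the whole of development, and each sample pools many brains. Emc, a helix-loop-helix protein without a DNA-binding region, dimerizes with the E-protein Daughterless, and the comparison asks which brain transcripts differ when that partner is held in such dimers. The flies were kept in 12 h of light and 12 h of darkness at 25°C and 60% humidity, and the hour at which brains were dissected is not given in the sources used here.

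The clock is a transcriptional feedback loop. Clk and Cyc are basic helix-loop-helix proteins with PAS domains that bind E-boxes as a dimer and activate *per*, *tim*, *vri*, *Pdp1* and *cwo*. Per and Tim return to the nucleus and inhibit Clk-Cyc, Vri represses and Pdp1 activates *Clk*, and Cwo binds the same E-boxes as a repressor. Cry is a blue-light receptor, and in light it binds Tim, which the F-box protein Jet marks for degradation. In wild-type heads the mRNAs of *per*, *tim*, *vri*, *Pdp1* and *cwo* peak around the early night, those of *Clk* and *cry* peak near dawn, and that of *cyc* is nearly constant. These genes are used in clock neurons, photoreceptors and many glia, so a whole brain sums several sources, and in such bulk samples fewer cells of a type and less RNA per cell cannot be told apart.

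The deposited values were raw counts of read pairs per gene, with 20751513 to 22776791 counts in 7 samples and 41619980 in EmcOE replicate 1. The study calls its samples biological replicates, each a pool of dissected brains, and the labels give no cross or collection for each, so p-values measure the spread between these pools. Normalized counts are counts divided by the TMM-scaled library size and multiplied by the mean of these sizes. All 6 neuronal markers were detected in every sample. Photoreceptor RNA was abundant too, with 14 of 14 photoreceptor markers detected and a summed normalized count of 800300 to 878600 in EmcOE and 844500 to 993400 in Control samples. *Pdf*, the neuropeptide of the ventral lateral clock neurons, was present in every sample at 1921 to 2382 normalized counts. *emc* was higher in EmcOE (log2 fold change 0.29, standard error 0.043, edgeR adjusted p = 0.00246), and *da* had a log2 fold change of 0.0029 (edgeR adjusted p = 0.977).

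Of the 9 clock genes, 1 was called changed between the groups. *cry* fell, by 14.3% (95% interval -22.0% to -5.73%). The remaining 8 did not pass edgeR's test, and 0 were called up by it, by DESeq2 or by limma-voom. An unadjusted p under 0.05 was reached by *cyc*, *Pdp1* and *cry*, and by 25.5% of all features tested. A gene was called where edgeR's quasi-likelihood test gave a Benjamini-Hochberg adjusted p of at most 0.05 over all features tested and the log2 fold change was at least 0.2 in size. Over all features 8.68% were called, 3.57% up (349) and 5.12% down (501), so 1 of 9 is close to the background. With total counts in place of TMM, 413 features were called up and 272 down, and *cry* was not called. The groups did not overlap in 16.4% of all features, higher in EmcOE in 8.51% and lower in 7.86%, and among the clock genes they did not overlap in *Pdp1* (higher) and *cry* (lower).

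**Figure D1:**
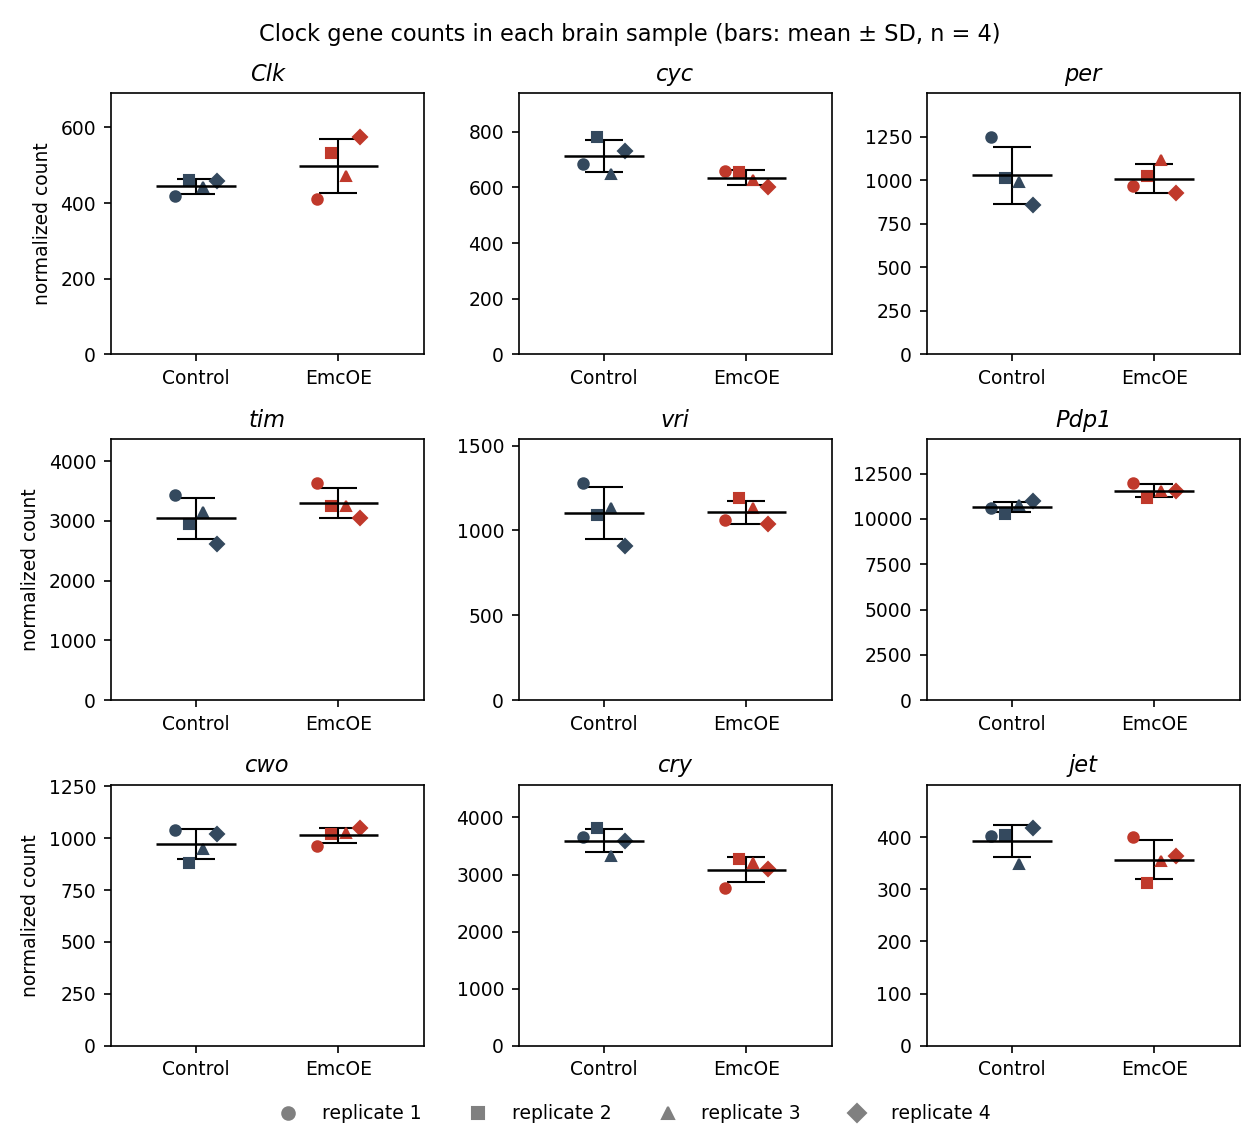
Normalized counts (vertical axes, each from 0) of the 9 clock genes in Control (dark) and EmcOE (red) brain samples, with 1 point per sample, a shape for each replicate number, and the mean ± SD (n = 4) as bars. The *cry* points of EmcOE lie between 2771 and 3265, all below the Control points at 3318 to 3808, and the *Pdp1* points of EmcOE all lie above those of Control.

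*cry* (FBgn0025680) lies on chromosome 3R of BDGP6.32 from 19212154 to 19215442 on the plus strand. Its normalized counts were 2771, 3265, 3201 and 3098 in EmcOE replicates 1 to 4 and 3664, 3808, 3318 and 3584 in Control replicates 1 to 4. Every EmcOE sample was therefore below every Control sample, with the nearest samples, EmcOE replicate 2 and Control replicate 3, close to each other. The means were 3084 ± 219 and 3594 ± 206 (SD, n = 4), and edgeR put the log2 fold change at -0.22 (standard error 0.062, adjusted p = 0.0493). An exact two-sided permutation test over the 70 assignments of samples gave p = 0.0286, the smallest that 4 against 4 samples allow. The call was at the edge of the threshold. It held in 2 of 8 fits that left out 1 sample (without EmcOE replicate 2 or Control replicate 3), and was lost without EmcOE replicate 1, 3 or 4 or Control replicate 1, 2 or 4, with adjusted p between 0.0251 and 0.116 and log2 fold changes between -0.26 and -0.17 over the 8 fits.

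Of the exon length of *cry*, 17.8% lies in exons of other features, the opposite-strand gene *vib* and the same-strand *lncRNA:CR46393*, and the counting without strand cannot assign reads there. *vib* had 5183 ± 180.0 normalized counts in EmcOE and 5211 ± 361 in Control (SD, n = 4; log2 fold change -0.0075, edgeR adjusted p = 0.949), and *lncRNA:CR46393*, below the minimum for testing, had 3.44 ± 0.831 and 5.29 ± 4.15. Among the 39 tested features within 250 kb of *cry*, 2 were called up and 2 down, where 3.57% of all features were called up and 5.12% down. The nearest called neighbours were *unc79*, 15.3 kb to the right, which rose, and *Cyp12a4*, 75.0 kb to the left, which fell (log2 fold change -0.40, edgeR adjusted p = 0.00279).

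Markers of other cell types were set beside the *cry* values, with 3.57% of all features called up and 5.12% down for reference. Of 8 glial markers, 2 were called down, *Gs2* and *Gli*, and 0 up, with 3 positive and 5 negative log2 fold changes. The summed level of the 8, to which *Gs2* gave the largest share, was 76920 to 86150 normalized counts in EmcOE and 89700 to 93180 in Control samples, without overlap. The single markers given next were picked with their values in view. *Gs2*, the glutamine synthetase of glia, fell by 0.27 on the log2 scale (edgeR adjusted p = 0.00696) and *Gli*, a septate junction protein, fell by 0.21 (edgeR adjusted p = 0.0325), while the transcription factor *repo*, which defines glia, had a log2 fold change of -0.064 (edgeR adjusted p = 0.505). With total counts neither *Gs2* nor *Gli* was called (edgeR adjusted p = 0.0715 and 0.215). *Gli* was also lost with edgeR without a filter and with DESeq2 with a replicate block. It was called in 2 of 8 fits that left out 1 sample (without EmcOE replicate 4 or Control replicate 3). Of 14 photoreceptor markers, 0 were called by edgeR, *trp* and *inaC* had an unadjusted p under 0.05, and 12 of the 14 had negative log2 fold changes, with a median of -0.087. Of 5 hemocyte and basement membrane markers, *Hml* and *NimC1* fell (by 0.69 and 0.48 on the log2 scale) and 0 rose, with summed levels of 18360 to 21460 normalized counts in EmcOE and 18330 to 21950 in Control. Of 8 fat body markers, *Fbp1*, *Fbp2* and *Lsp1beta* rose (log2 fold changes 2.06, 1.96 and 1.49) and 0 fell. The summed level of the 8 was 89930 to 161400 in EmcOE and 52750 to 201200 in Control. Of 5 muscle markers 0 were called by edgeR, but all 5 had negative log2 fold changes, with a median of -0.30. The summed level of the 5 was 13560 to 20670 in EmcOE and 16070 to 26750 in Control. None of the markers in these lists was at 0. Over the 8 samples with group means removed, the median r of *cry* was 0.57 with the hemocyte markers, 0.42 with the glial and 0.39 with the photoreceptor markers. It was 0.25 with the fat body, 0.11 with the neuronal and -0.047 with the muscle markers. With the 3 clock neuron markers it was -0.605, and all 3 were negative. With total counts in place of TMM the muscle and clock neuron medians were 0.311 and -0.138, and the others lay between 0.295 and 0.521. The part of these cell types in the *cry* difference was not tested.

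*jet* (FBgn0031652) occupies 2L from 4948206 to 4949784 and shares 8.19% of its exonic bases with *betaggt-I* on the other strand. Its normalized counts were 400.0, 311, 353 and 363 in EmcOE and 402, 404, 349 and 417 in Control replicates. The groups overlapped, since Control replicate 3 lay among the lower EmcOE samples and EmcOE replicate 1 near the higher Control samples. Between the groups the log2 fold change of *jet* was -0.13 (95% interval -0.34 to 0.068, edgeR adjusted p = 0.395).

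The dimer partners *Clk* and *cyc* did not pass the test. *Clk* (FBgn0023076; 3L, 7763233 to 7775603) had 410.0, 531, 472 and 575 normalized counts in EmcOE and 418, 461, 441 and 459 in Control replicates. Control samples lay close together, with a coefficient of variation of 4.48%, whereas EmcOE samples lay on both sides of them with 14.4%. For *Clk* the log2 fold change was 0.16 (95% interval -0.069 to 0.38, edgeR adjusted p = 0.370). *cyc* (FBgn0023094; 3L, 19813770 to 19815938) had 658, 656, 626 and 601 in EmcOE and 685, 781, 650.0 and 731 in Control replicates. Only Control replicate 3 fell within the EmcOE range. Its log2 fold change was -0.16 (95% interval -0.32 to -0.0076), with an unadjusted p of 0.0415 and an adjusted p of 0.176 from edgeR.

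*per* and *tim*, the repressors of the loop, had intervals that reached both directions. *per* (FBgn0003068; X, 2685580 to 2692780) had 966, 1025, 1119 and 929 normalized counts in EmcOE and 1249, 1016, 991 and 858 in Control replicates. The Control samples held both the highest and the lowest value and enclosed the EmcOE samples. The log2 fold change was -0.028 (95% interval -0.26 to 0.20, edgeR adjusted p = 0.897). Its sign depended on the scaling, and with total counts it was 0.036. The exons of *per* share 1.08% of their length with *dyw*, a gene on the opposite strand that was singled out after its values were seen, with 1446 ± 311 normalized counts in EmcOE and 2107 ± 436 in Control (SD, n = 4; log2 fold change -0.54, edgeR adjusted p = 0.0713).

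*tim* (FBgn0014396; 2L, 3493986 to 3508119) had 3639, 3250, 3252 and 3053 normalized counts in EmcOE and 3440, 2954, 3146 and 2619 in Control replicates. In each group replicate 1 was highest and replicate 4 lowest, and the ranges overlapped. Its estimated log2 fold change was 0.12 (95% interval -0.063 to 0.30, edgeR adjusted p = 0.401).

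The second loop consists of the bZIP proteins Vri and Pdp1, which act on *Clk* in opposite directions. *vri* (FBgn0016076; 2L, 5288944 to 5311223) had 1064, 1191, 1135 and 1038 normalized counts in EmcOE and 1282, 1091, 1132 and 909 in Control replicates. As for *per*, the Control range enclosed the EmcOE range. The log2 fold change was 0.0028 (95% interval -0.20 to 0.21, edgeR adjusted p = 0.989), and its sign changed with several settings.

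*Pdp1* (FBgn0016694; 3L, 7811458 to 7867369) had 12006, 11152, 11560 and 11540 normalized counts in EmcOE and 10628, 10285, 10754 and 11002 in Control replicates. Every EmcOE sample was above every Control sample, a pattern found in 8.51% of all features tested. The difference was small, with a log2 fold change of 0.12 (95% interval 0.019 to 0.21), and it was not called (edgeR unadjusted p = 0.0239, adjusted p = 0.126). *Pdp1* has 13 annotated transcripts in a later Ensembl release, of which only some encode the clock isoform, and the table sums them. A gap of 35.9 kb separates it from *Clk* on the same strand of 3L, and *Clk* overlapped between the groups.

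*cwo* (FBgn0259938; 3R, 10388258 to 10400752), the repressor of the basic helix-loop-helix Orange family, had 962, 1021, 1027 and 1047 normalized counts in EmcOE and 1041, 881, 950.1 and 1020.1 in Control replicates. The EmcOE samples lay within or just above the Control range. Its log2 fold change was 0.059 (95% interval -0.081 to 0.20, edgeR adjusted p = 0.603).

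**Figure D2:**
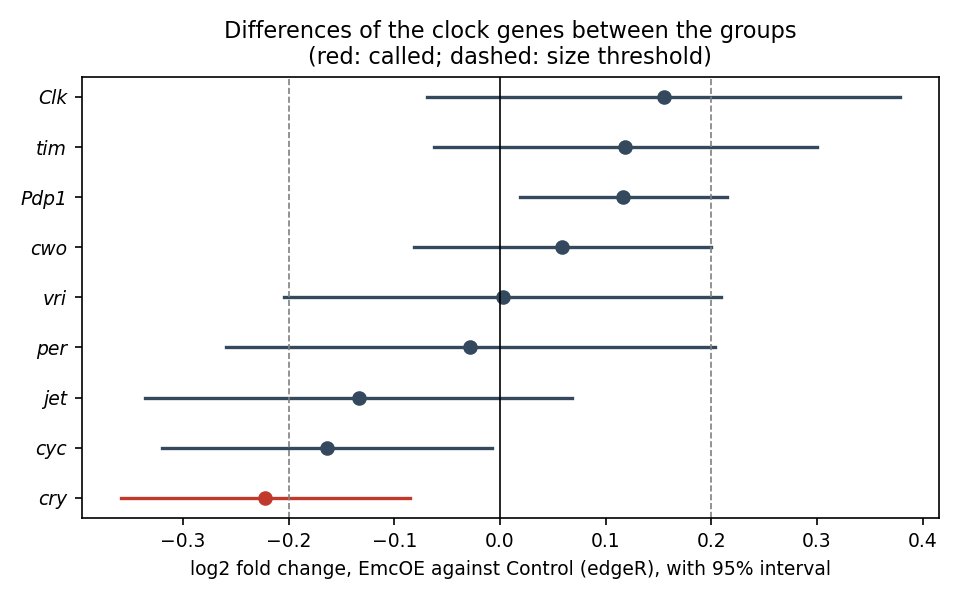
Log2 fold changes of EmcOE against Control (horizontal axis) for the 9 clock genes from edgeR, with 95% intervals as lines, the called gene in red and the size threshold of 0.2 dashed. Only the interval of *cry* belongs to a called gene, those of *Pdp1* and *cyc* leave out 0 without passing the adjusted test, and the other 6 include 0.

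Per kilobase of exon, *cry* was the most abundant clock transcript, with 1895 ± 109 normalized counts per kb in Control and 1626 ± 116 in EmcOE (SD, n = 4). *Pdp1* followed with 879 ± 24.6 in Control, and *tim* (492 ± 55.7) and *cyc* (438 ± 35.1) came next and overlapped each other. *jet* (270.2 ± 20.7), *vri* (233 ± 32.4), *per* (227 ± 35.9) and *cwo* (191 ± 14.3) formed a group in which each neighbour in the order overlapped the next. *Clk* was lowest in Control, at 98.5 ± 4.41, below all others. The exon length used here is that of all isoforms together, so genes with many isoforms, such as *Pdp1*, are understated on this scale.

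The clock genes also differed in how much they varied within groups. The pooled SD of log2 normalized counts was 0.18 for *per*, 0.16 for *vri*, 0.16 for *Clk* and 0.14 for *tim*, against a median of 0.10 over the 7978 features that averaged 100 or more normalized counts. Of those features 82.6% varied less than *per*, 77.2% less than *vri* and 76.7% less than *Clk*. At the other end *Pdp1* had an SD of 0.042, and 3.58% of the features varied less. *cry* (0.095), *cyc* (0.092) and *cwo* (0.086) were near the median, and *jet* was at 0.13.

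Single samples were then compared across the clock genes. In Control samples, *per*, *tim* and *vri* were all highest in replicate 1 and all lowest in replicate 4. In EmcOE samples all 3 were lowest in replicate 4, but their highest values lay in different samples, replicate 3 for *per*, replicate 1 for *tim* and replicate 2 for *vri*. *Clk* showed the opposite order to *tim* in EmcOE, lowest in replicate 1 and highest in replicate 4.

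Correlations were computed over the 8 samples after removal of the group means, so that a difference between the groups does not enter, and were tested by exact two-sided permutation of 1 gene within each group (576 arrangements). Of 36 gene pairs, 16 had a positive and 20 a negative Pearson r, 5 had a size of at least 0.7, and 3 had an unadjusted p under 0.05. After Benjamini-Hochberg adjustment over the 36 pairs 0 passed, with the lowest adjusted p at 0.188, so the following values describe these 8 samples.

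*per* and *vri* had the highest r of all pairs, 0.91 (exact permutation p = 0.0313, adjusted p = 0.563; Spearman's rho 0.88, exact permutation p = 0.0243, adjusted p = 0.292). Of all features tested 0.266% were as positively correlated with *per* as *vri* was. Without Control replicates 1 and 4, the 2 samples farthest from the median of *per*, r was 0.66. *tim* had an r of 0.76 with *vri* (exact permutation p = 0.0833, adjusted p = 0.738; rho 0.69, exact permutation p = 0.122, adjusted p = 0.819) and 0.71 with *per* (exact permutation p = 0.102, adjusted p = 0.738; rho 0.62, exact permutation p = 0.163, adjusted p = 0.819). These both rested on Control replicates 1 and 4, without which r was 0.050 and -0.020. Without the deep library EmcOE replicate 1, they were 0.98 and 0.91.

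*Clk* and *tim* had an r of -0.71 (exact permutation p = 0.00521, adjusted p = 0.188; rho -0.79, exact permutation p = 0.0104, adjusted p = 0.219). The value was -0.61 without EmcOE replicates 1 and 4, the 2 samples farthest from the median of *Clk*, and -0.60 without EmcOE replicate 1 alone, and 4.27% of all features tested were as negatively correlated with *Clk* as *tim* was. *Pdp1* and *cry* had an r of -0.78 (exact permutation p = 0.0486, adjusted p = 0.583; rho -0.90, exact permutation p = 0.0122, adjusted p = 0.219). With total counts in place of TMM it was 0.071, and without Control replicate 2 and EmcOE replicate 1 it was -0.28. *cyc*, *cwo* and *jet* had no r of 0.7 or more in size with any other clock gene.

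**Figure D3:**
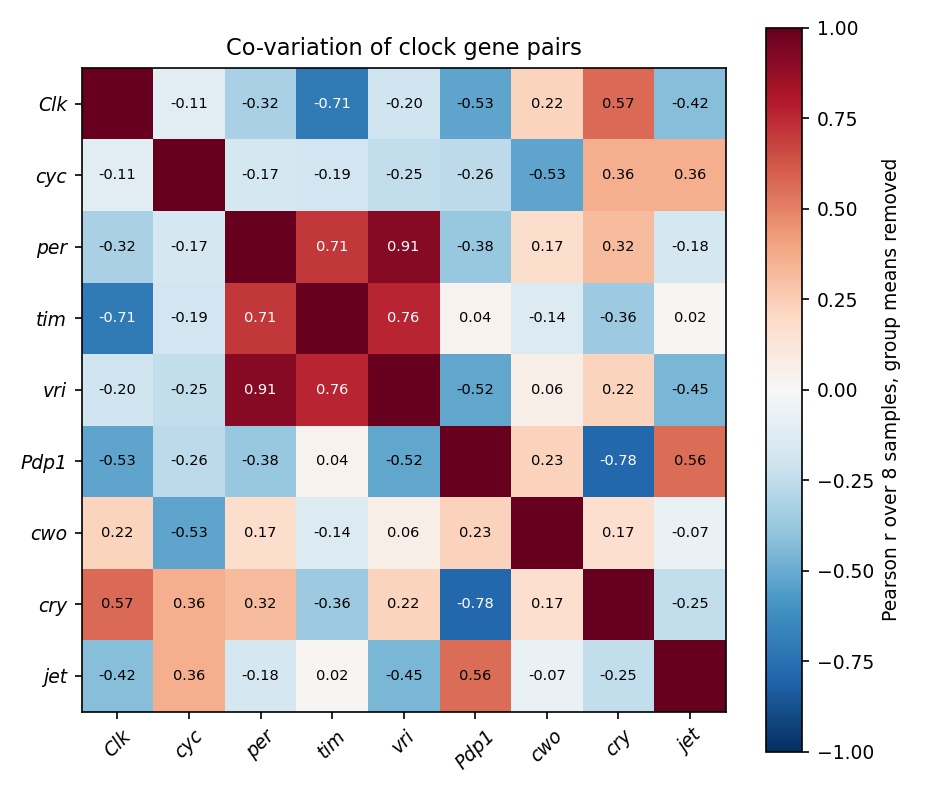
Pearson r for each pair of clock genes over the 8 samples after removal of the group means, from blue (-1) to red (1). *per*, *tim* and *vri* form the positive block (0.71, 0.76 and 0.91), and the lowest values are those of *Pdp1* with *cry* (-0.78) and of *Clk* with *tim* (-0.71).

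The mRNAs that peak around the early night were also set against those that peak near dawn in each sample, as the mean log2 normalized count of *per*, *tim*, *vri*, *Pdp1* and *cwo* minus that of *Clk* and *cry*. The difference was 0.99, 0.70, 0.82 and 0.61 in EmcOE replicates 1 to 4 and 0.88, 0.57, 0.76 and 0.54 in Control replicates 1 to 4. The groups overlapped, with means of 0.78 ± 0.16 and 0.69 ± 0.16 (SD, n = 4), and the samples within a group differed more than the group means. In both groups the order from highest to lowest was replicate 1, 3, 2 and 4. Each EmcOE value was also above that of the same-numbered Control sample. Whether this offset exceeds the spread within replicate numbers was not tested, and the labels do not say that a number marks a pair. The difference between the group means, 0.095, was 0.025 without EmcOE replicate 1 and 0.16 without Control replicate 1.

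The profile of *tim* over the 8 samples was compared with all other features tested, again after removal of the group means. The features most like it were *Den1* (r = 0.97), *CG42361* (r = 0.97), *Rab21* (r = 0.97), *CSN4* (r = 0.96) and *Tfb4* (r = 0.96). *Den1* encodes a protease that removes the ubiquitin-like protein Nedd8, *Rab21* a small GTPase, *CSN4* a subunit of the COP9 signalosome and *Tfb4* a subunit of the general transcription factor TFIIH. None of the 5 was called between the groups by edgeR. *vri* ranked 236 and *per* 361 among 9787 features in this order.

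The features least like *tim* were *inaC* (r = -0.99), *rdgA* (r = -0.98), the transposon insertions FBti0020031 (r = -0.96) and FBti0063396 (r = -0.95), and *CG4259* (r = -0.94). These features and those most like *tim* were picked as the ends of an order of 9787 features over 8 samples. Their r values are therefore extreme by selection and were not tested. *inaC*, the eye-specific protein kinase C, and *rdgA*, a diacylglycerol kinase, both act in phototransduction. *inaC* had 15410, 16440, 16290 and 17280 normalized counts in EmcOE and 16680, 18430, 17870 and 19540 in Control replicates, so that the samples with the most *tim* had the least *inaC* in each group. *rdgA* had 21320, 23400, 23070 and 24120 in EmcOE and 21510, 23010, 22420 and 25360 in Control replicates, with the same ends. Neither was called between the groups (edgeR adjusted p = 0.143 for *inaC* and 0.965 for *rdgA*). FBti0020031 rose by 3.01 and *CG4259* fell by 0.53 on the log2 scale (edgeR adjusted p = 0.0367 for *CG4259*).

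Of the 14 photoreceptor markers, 13 were negatively and 1 positively correlated with *tim*, with r from -0.99 to 0.12 and a median of -0.82. The same medians were -0.48 for *per* and -0.57 for *vri*, and 0.53 for *Clk* and 0.39 for *cry*. Without Control replicates 1 and 4 they were 0.26 for *per* and 0.047 for *vri*. Those of *tim*, *Clk* and *cry* were then -0.73, 0.56 and 0.597. Over the 8 glial markers the median with *tim* was -0.33 and over the 6 neuronal markers -0.42. The scaling moved these values. With total counts in place of TMM the median of the photoreceptor markers was -0.34 with *tim* and 0.0075 with *per*, that of the glial markers with *tim* was 0.22, *inaC* had an r of -0.45 and *rdgA* of -0.51, whereas *Den1* (0.98) and *CSN4* (0.97) moved little. The features share libraries and scaling factors, so these correlations are descriptions of 8 samples, and the part of photoreceptor RNA in the *tim* values was not tested.

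**Figure D4:**
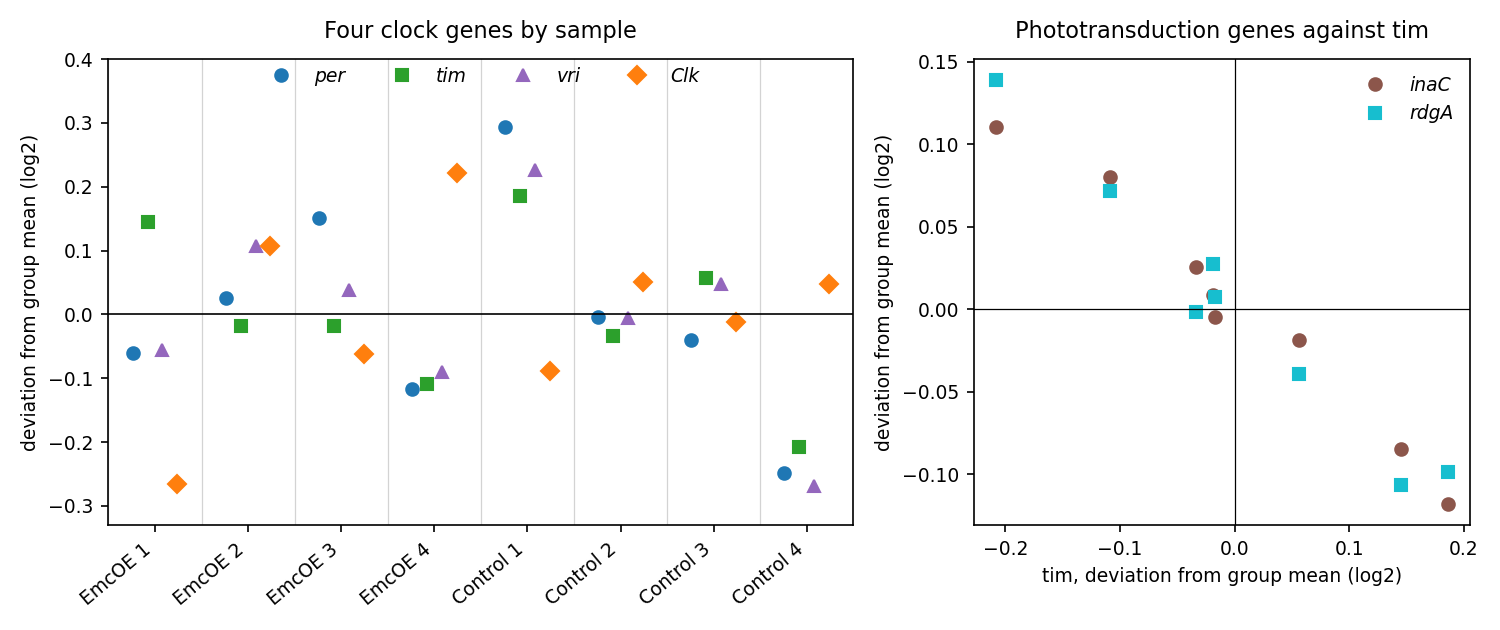
Left, deviations from the group mean (log2, vertical axis) of *per*, *tim*, *vri* and *Clk* in each of the 8 samples, where Control replicate 1 is above and Control replicate 4 below the mean for the first 3. Right, deviations of *inaC* and *rdgA* (vertical axis) against those of *tim* (horizontal axis), with 1 point per sample and gene, falling along a line of negative slope (r = -0.99 and -0.98). Both genes were picked as the features least like *tim*. With total counts in place of TMM their r was -0.45 and -0.51.

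Genes that act on or around the core loop were followed in lists by known role, chosen with earlier results of these data known. Members that were not called are named as examples picked after their values were seen. Of 17 genes for kinases, phosphatases and protein turnover, 0 were called by edgeR, and *CSN5* and *CkIIbeta* had an unadjusted p under 0.05. The list holds *dco*, the casein kinase that phosphorylates Per, *sgg*, which acts on Tim, and *slmb*, which targets Per for degradation, at 0.013, 0.083 and 0.089 on the log2 scale (edgeR adjusted p = 0.877, 0.267 and 0.257). Its median log2 fold change was 0.037, and that of all features tested was 0.013.

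Of 11 translation and chromatin cofactors, 1 was called up and 0 down, near the 8.68% called in either direction among all features. *nej*, the CBP acetyltransferase and a coactivator of Clk-Cyc, had 3264, 3636, 3841 and 3797 normalized counts in EmcOE and 2922, 2946, 3197 and 3188 in Control replicates, without overlap. Its log2 fold change was 0.25 (standard error 0.060, edgeR adjusted p = 0.0290). It was called in 3 of 8 fits that left out 1 sample and lost without EmcOE replicate 2, 3 or 4 or Control replicate 1 or 2 (adjusted p up to 0.0864). *tyf* and *Atx2*, which together promote *per* translation, stood at 0.19 and 0.075 on the log2 scale (edgeR adjusted p = 0.0798 and 0.353).

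Of 21 genes for clock neuron peptides, their receptors and clock output, 4 were called up and 0 down, where 3.57% of all features were called up and 5.12% down, with 14 positive and 7 negative log2 fold changes and a median of 0.097. Since the list was chosen with earlier results known, its count was not tested against these shares. The 4 were *unc79*, *Nf1*, *AstC-R2* and *Mid1*. *unc79* had 14420, 16790, 18040 and 17350 normalized counts in EmcOE and 13070, 12440, 13850 and 13830 in Control replicates (log2 fold change 0.32, standard error 0.071, edgeR adjusted p = 0.0187). *Mid1* had 7320, 8233, 9011 and 8239 in EmcOE and 6679, 6510.0, 6835 and 7236 in Control replicates (0.27, standard error 0.064, edgeR adjusted p = 0.0276). In both genes every EmcOE sample was above every Control sample, as in 8.51% of all features tested, and EmcOE replicate 1 was the nearest to Control.

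Unc79 and Mid1, which RefSeq lists with the synonym Nlf-1 and which was matched to the list by that synonym, belong to the sodium leak channel complex of the pore protein Na and of Unc80, which sets the excitability of clock neurons and is needed for behavioural rhythms. *na* and *unc80* are in the same list and were not called, at 0.20 and 0.22 on the log2 scale (edgeR adjusted p = 0.0637 and 0.0604) and no overlap between the groups. DESeq2 called *unc80* (adjusted p = 0.0134), and without EmcOE replicate 1 both were called (edgeR adjusted p = 0.0240 for *na* and 0.0146 for *unc80*). These genes are used throughout the nervous system. Of 6 neuronal markers, 0 were called by edgeR, and 5 had a positive log2 fold change, with a median of 0.18 over the 6. The largest, picked with their values in view, were *brp* (0.27, edgeR adjusted p = 0.0527) and *para* (0.24, edgeR adjusted p = 0.118). The groups overlapped in both, and the negative marker was *nSyb* (-0.065, edgeR adjusted p = 0.433). The paper lists *brp* among its upregulated genes. The summed level of the 6 was 124200 to 139500 normalized counts in EmcOE and 117700 to 131600 in Control samples. The part of neuronal RNA in these differences was not tested.

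*Nf1*, a Ras regulator that acts downstream of the clock in rest and activity rhythms, had 4268, 4676, 4868 and 5042 normalized counts in EmcOE and 3513, 3460.0, 4187 and 4123 in Control replicates (log2 fold change 0.30, standard error 0.076, edgeR adjusted p = 0.0335). *AstC-R2*, a receptor for the neuropeptide allatostatin C, had 961, 919.6, 955 and 951 in EmcOE and 780, 797, 779 and 788 in Control replicates (0.27, standard error 0.048, edgeR adjusted p = 0.00672). *AstC-R2* was called in 8 of 8 fits that left out 1 sample. *unc79* was lost without EmcOE replicate 2 or 3 or Control replicate 1 or 2 (adjusted p up to 0.0608), *Nf1* without those or EmcOE replicate 4 (up to 0.103), and *Mid1* without those, EmcOE replicate 4 or Control replicate 3 (up to 0.0832). Over the 8 fits the number of genes of this list called up ranged from 1 to 6. It was 1 without EmcOE replicate 2 or 3 or Control replicate 1 or 2, and 2 without EmcOE replicate 4. The number called down was 1 without EmcOE replicate 4 or Control replicate 3, and 0 in the other fits. *AstC*, the ligand of AstC-R2, was 2217, 2162, 2083 and 2360.0 in EmcOE and 2547, 2534, 2375 and 2575 in Control replicates, lower in EmcOE without overlap. Its adjusted p of 0.0430 from edgeR passed, but at -0.19 on the log2 scale it fell short of the size threshold and was not called.

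*Pdf* itself had 2382, 2148, 2030 and 1921 normalized counts in EmcOE and 2014, 2157, 2240 and 2293 in Control replicates. The highest and the lowest value were both in EmcOE, and the log2 fold change was -0.036 (95% interval -0.19 to 0.12, edgeR adjusted p = 0.794). The other markers of clock neurons, *Dh31* and *CCHa1*, stood at 0.097 and 0.14 on the log2 scale (edgeR adjusted p = 0.191 and 0.404).

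**Figure D5:**
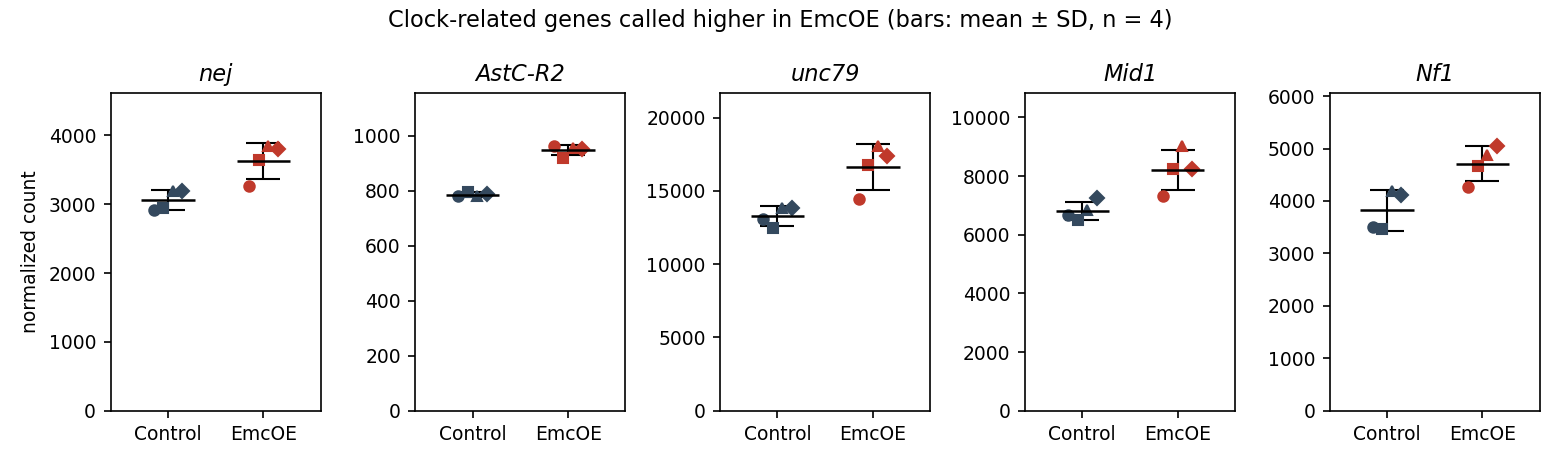
Normalized counts (vertical axes, each from 0) of the 5 clock-related genes called up, in Control (dark) and EmcOE (red) samples, with 1 point per sample (replicates 1 to 4 as circle, square, triangle and diamond) and the mean ± SD (n = 4) as bars. In each gene every EmcOE point is above every Control point, as in 8.51% of all features tested. The genes were picked because they were called up, which favours such a separation.

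Of 6 genes of light input and 7 transcripts known to cycle in fly heads, 0 were called by edgeR. The lowest p among the first was that of *nocte*, which is needed for entrainment by temperature (log2 fold change 0.21, edgeR adjusted p = 0.0604), and among the second that of *Cyp18a1* (-0.30, edgeR adjusted p = 0.0679). DESeq2 without a block called 1 gene of light input up and 1 cycling transcript down, and with a replicate block it called 0 of either. With a replicate block or without a filter, edgeR called 1 gene of light input up. In the fits that left out 1 sample, 1 gene of light input was called up without EmcOE replicate 1, and 1 cycling transcript was called down without Control replicate 3. *to*, a clock output gene, had 302, 212, 253 and 203 normalized counts in EmcOE and 169, 131, 203 and 269 in Control replicates. The groups overlapped, and its log2 fold change of 0.34 had a 95% interval of -0.11 to 0.79 (edgeR adjusted p = 0.325).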

How the data were processed

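Unstranded poly(A+) libraries of adult brains, 4 EmcOE and 4 Control, had been sequenced as read pairs. The authors trimmed them with BBDuk, mapped them with STAR 2.7.4a in a first and a second pass to BDGP6.32, and assigned them to genes with featureCounts 2.0.1. The deposited table holds the raw counts per gene and, per the file headers, the summed exon length, and 0 of its sample columns were left unused. Groups and replicate numbers came from the labels. The counting used no strand, so read pairs in exons shared with another gene cannot be assigned by strand.

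Counts were tested with edgeR 4.0.16 (R 4.3.3; TMM scaling, quasi-likelihood test of group, for features averaging 20 or more normalized counts in either group). A call required an adjusted p no higher than 0.05 together with a change of 0.2 or more on the log2 scale. Log2 values for correlations had a pseudocount of 0.5. Alternatives were DESeq2 1.42.0, limma-voom (limma 3.58.1), RLE size factors, total counts, no filter, a minimum of 100, no size threshold, a replicate block and leaving out each sample. The procedure was tested on simulated data at these depths: with 8 samples 60.6% of the features given a log2 change of 0.5 were recovered, 82.5% at a log2 change of 1, and 9 calls were false (9666 features), so small differences in the clock genes may be missed. No depth-based interval was used for counts, since replicate spread exceeded counting error.

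The clock genes and the lists were chosen with earlier results of these data known. Named are the clock genes, *emc* and *da*, the genes called in each list, the 5 features most and the 5 least like *tim*, and the nearest called neighbours of a called clock gene; others are marked as picked after their values were seen. Promoter sequences were not analysed here.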

Additional observations from a re-analysis of the deposited data

How the results depend on the processing

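No clock gene other than *cry* was called under any of the 16 alternatives fitted gene by gene, and *cry* was called in 7 of them. The number of clock genes called down was 0 with edgeR's replicate block, limma-voom or total counts, and 0 to 1 when 1 sample was left out. It was 1 with DESeq2, both without a block and with the replicate block (adjusted p of *cry* 0.00926 and 0.0191). The log2 fold change of *cry* ranged from -0.26 to -0.16 with adjusted p from 0.00926 to 0.209 (limma-voom 0.0521, total counts 0.209). With total counts 413 features were called up and 272 down, and *per* turned to 0.036. The log2 fold change of *vri* turned to -0.0030 with DESeq2 without a block, -0.0030 with RLE size factors, -0.00083 without a filter and -0.0023 with a minimum of 100. Leaving out 1 sample moved *vri* between -0.081 and 0.083 and *per* between -0.11 and 0.079, and moved the features called up between 204 and 465 and those called down between 323 and 513. They were lowest without Control replicate 2 (204 up, 323 down), and without Control replicate 1 229 were called up. The correlation of *per* and *tim* was -0.020 without the 2 samples farthest from the median, and that of *Pdp1* and *cry* was 0.071 with total counts.

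The labels number the replicates alike in both groups but do not say that a number marks a shared batch or day. Over all features tested, deviations of same-numbered samples correlated at -0.49, 0.15, 0.032 and -0.21, and the main test did not take the numbers as pairs. A correlation over all features cannot show whether the clock genes alone share a replicate factor. For *tim*, the order from highest to lowest was replicate 1, 3, 2 and 4 in both groups, with EmcOE replicates 2 and 3 nearly equal. Each EmcOE value of *tim* was above that of the same-numbered Control sample. With edgeR's replicate block the adjusted p of *tim* was lower than without it, and *tim* was still not called. Whether same-numbered samples shared an hour of dissection was not tested. With the replicate block edgeR called 326 features up and 487 down, and *cry* had an adjusted p of 0.0659. That fit called 1 light input gene up in place of 0, as did DESeq2 without a block and edgeR without a filter. DESeq2 with the replicate block called 0 light input genes up, and *cry* had an adjusted p of 0.0191. Depth limits the clock genes little, since the lowest value, that of *jet* in EmcOE replicate 2, was 311 normalized counts, but 4 samples a group leave 95% intervals wide, -0.26 to 0.20 for *per*.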
